A study of Mus musculus with 9 samples.

Results

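The activin system of mouse striatum was described from 8 genes: the ligand subunits Inhba and Inhbb, the type I receptors Acvr1b and Acvr1, the type II receptors Acvr2a and Acvr2b, the activin-binding protein Fst and its relative Fstl1. The members were the probe sets whose single gene symbol was one of these names. Each gene had 1 such probe set, so 8 of the 21780 probe sets with 1 symbol were members, and all 8 were above the filter on low values. The set was chosen by an earlier reading of the same arrays, in which the log2 values of Inhba stood out as higher at 1 week after acute MPTP than in controls. Values of acute MPTP against control are therefore given as a description without a test for all members, and Inhba has no test in any comparison.

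Total RNA of striatum was measured on 9 arrays, 3 for each of 3 groups of mice, and values are log2 intensities as deposited. Acute mice received 4 intraperitoneal injections of MPTP, each of 20 mg/kg and 2 h apart, and were sampled 1 week later. Chronic mice received 4 mg/kg of MPTP per day for 20 days and were sampled 8 weeks later. Control mice received saline in place of MPTP, on the acute schedule of 4 injections at intervals of 2 h, and were likewise sampled at 1 week. The total MPTP dose was 80 mg/kg under both regimens. MPTP is converted in brain to a toxin that the dopamine transporter takes up, and so it harms the dopamine axons that end in striatum. For chronic MPTP, the regimen and the time after dosing cannot be told apart in either comparison. Genotype, strain, sex and age of the mice are not given in the sources used here. The labels do not tie the arrays to separate animals, so the errors measure the spread between these samples, which may be technical.

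Activins are secreted dimers of inhibin beta subunits: Inhba encodes the subunit of activin A and Inhbb that of activin B. A dimer binds a type II receptor kinase, which recruits and activates a type I receptor kinase, and the type I receptor then phosphorylates Smad2 and Smad3, which act in the nucleus with Smad4. Follistatin, the product of Fst, binds activin outside the cell and keeps it from its receptors. In rodent brain, Inhba is known as a gene that neurons induce with synaptic activity.

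The arrays carried the transcripts of striatal tissue. Of 13 genes of striatal projection neurons, 11 were measured and all 11 were tested; Penk ran from 13.16 to 13.56 and Ppp1r1b, which encodes DARPP-32, from 11.44 to 12.31 on the log2 scale. The content of neighbouring tissue differed between arrays. Tbr1, which marks excitatory neurons of cortex, lay at 9.89, 9.12 and 9.65 on control 1, acute 1 and acute 2 and between 5.69 and 7.27 on the other 6 arrays. The mean of 8 choroid plexus genes, each centred on its own mean, was 0.92 on control 3 and 1.58 on acute 3 and between -0.71 and 0.09 elsewhere. Control 1, acute 1 and acute 2 are called cortex-rich below, and control 3 and acute 3 choroid-rich. Each result on a member was recomputed with either set left out. Without the cortex-rich arrays, the only acute array left was acute 3, itself choroid-rich. Without the choroid-rich arrays, the acute arrays left, acute 1 and acute 2, were both cortex-rich. Neither fit is thus free of neighbouring tissue in the acute group. In bulk tissue, fewer cells of a type and less RNA per cell cannot be told apart.

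The windows around the annotated transcript starts of 3 members are shown because these genes span the range seen on the arrays: Inhba varied most, Inhbb varied least, and Acvr1 was the only other member with chronic arrays wholly above the controls. Sequences are from RefSeq on GRCm38.p6 and run from 250 bases before to 50 bases after the start, on the strand of the gene. Capitals mark matches to the TATA motif TATAAA, the only motif searched that these 3 windows held.
Inhba: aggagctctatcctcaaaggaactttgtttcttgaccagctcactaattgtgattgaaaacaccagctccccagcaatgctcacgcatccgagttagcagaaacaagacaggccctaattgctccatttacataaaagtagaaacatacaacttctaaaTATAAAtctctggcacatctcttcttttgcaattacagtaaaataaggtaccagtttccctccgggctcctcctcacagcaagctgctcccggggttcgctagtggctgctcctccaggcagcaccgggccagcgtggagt
Inhbb: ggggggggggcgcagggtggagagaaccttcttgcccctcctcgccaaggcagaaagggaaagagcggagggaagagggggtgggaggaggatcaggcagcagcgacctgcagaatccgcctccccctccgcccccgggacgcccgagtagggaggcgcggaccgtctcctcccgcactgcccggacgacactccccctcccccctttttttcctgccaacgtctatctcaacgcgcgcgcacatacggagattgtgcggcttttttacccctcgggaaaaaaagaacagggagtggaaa
Acvr1: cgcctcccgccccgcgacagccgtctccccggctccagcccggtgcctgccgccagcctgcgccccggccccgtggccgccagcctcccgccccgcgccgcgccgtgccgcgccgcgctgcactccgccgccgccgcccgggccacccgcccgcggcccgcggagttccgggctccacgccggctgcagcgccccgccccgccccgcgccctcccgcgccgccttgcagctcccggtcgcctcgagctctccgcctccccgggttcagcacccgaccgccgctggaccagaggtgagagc

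The Inhba window lies at chr13:16011601-16011900 on the plus strand, inside the annotated gene (chr13:16004256-16031609), because other RefSeq models of the gene begin further upstream. The Inhbb window lies at chr1:119422199-119422498 and the Acvr1 window at chr2:58566779-58567078, both on the minus strand. G and C made up 47.7% of the Inhba window, 64.3% of the Inhbb window and 83.7% of the Acvr1 window, against a median of 52.7% over 32851 windows of the same length, several of which can belong to 1 gene. Of the 7 members with a window (Fst had no entry), Inhba was lowest in GC and held 7 CpG dinucleotides; the other 6 held between 21 and 54. The Inhba window held TATAAA once, 91 bases before the start, which 13.6% of all windows also hold on either strand. The motifs TGACGTCA (the cyclic AMP response element, in 1.79% of windows) and TGANTCA (the AP-1 site, in 7.81%) matched in 0 of the 7. CAGAC, the short Smad-binding motif that 49.6% of windows hold, matched once each in Acvr2a and Acvr2b. Both strands were searched, and no match overlapped another.

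Inhba, the activin A subunit, was the member with the widest range, 1.35 on the log2 scale over the 9 arrays. Its log2 intensity was 7.81, 7.89 and 7.53 on control 1, 2 and 3. On acute 1, 2 and 3 it was 8.37, 8.14 and 8.08. On chronic 1, 2 and 3 it was 8.49, 7.92 and 8.88. All 6 MPTP arrays lay above all 3 control arrays, with chronic 2, at 7.92, only just above control 2, at 7.89. The order of the group means was control (7.74 ± 0.19, SD, n = 3), acute (8.20 ± 0.15) and chronic (8.43 ± 0.48), and the acute and chronic arrays overlapped. The spread within the chronic group was the largest of the 3.

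The log2 difference of Inhba was 0.45 ± 0.22 (SE of the limma fit) for acute MPTP against control, 1.37-fold. For chronic MPTP against control it was 0.69 ± 0.22, 1.61-fold, and for chronic against acute it was 0.23 ± 0.22. Between arrays of the same replicate number, Inhba was higher after acute MPTP by 0.56, 0.25 and 0.55 for numbers 1, 2 and 3. After chronic MPTP it was higher by 0.68, 0.03 and 1.35 for the same numbers, so number 2 hardly differed and number 3 differed most. Without chronic 3 the chronic against control difference was 0.46 and the chronic against acute difference 0.01; without chronic 2 the latter was 0.49.

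**Figure D1:**
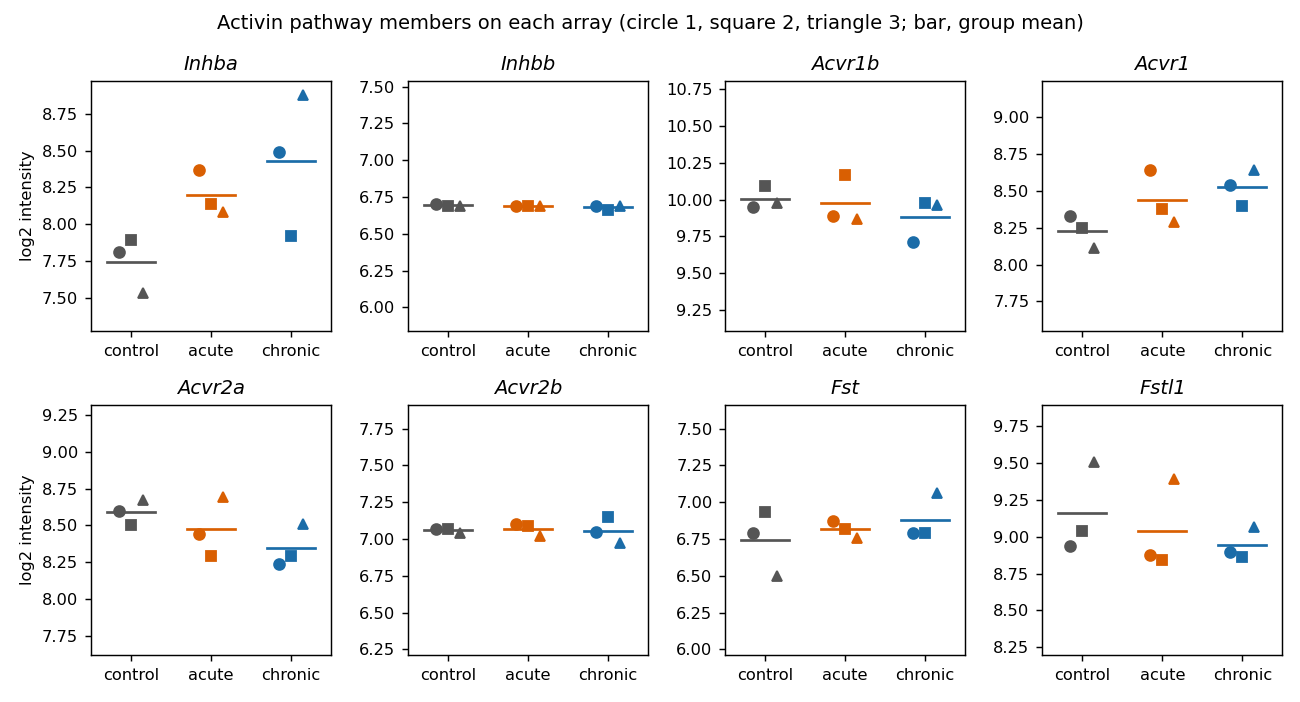
Log2 intensity (y axis, each panel spanning the same range of log2 units) of the 8 members on the 9 arrays, by group (x axis); symbols give the replicate number and bars the mean of 3 arrays. All 6 MPTP arrays of Inhba lie above the 3 controls, between 7.92 and 8.88 against 7.53 to 7.89, while Inhbb stays between 6.66 and 6.70.

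Levels of striatal projection neuron genes moved with Inhba on some arrays but not on all. The mean of the 11 tested genes of that list, each centred on its own mean, was -0.41, 0.09 and -0.52 on control 1, 2 and 3. It lay between -0.01 and 0.09 after acute MPTP and between 0.21 and 0.31 after chronic MPTP. Control 3, lowest in this list, was also lowest in Inhba, and chronic 3, highest in it, was highest in Inhba. Chronic 2, however, was high in the list and low in Inhba. Control 2, at 0.09, was level with the highest acute array in the list but lay below all acute arrays in Inhba. With the striatal list mean as a covariate, an alternative chosen after seeing the data, the Inhba difference was 0.24 for acute and 0.33 for chronic MPTP against control. With the means of the cortex list and of the thalamus, septum and hypothalamus list as covariates it was 0.36 and 0.35, and -0.00 for chronic against acute. Without the 3 cortex-rich arrays it was 0.37 and 0.72 against control, and without the 2 choroid-rich arrays 0.40 and 0.58.

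The genes of the immediate early list, many of them transcribed within minutes of neuronal firing, had another pattern. The mean of 19 such genes, each centred on its own mean, was between -0.11 and 0.08 in controls, between -0.51 and -0.17 after acute MPTP and 0.13, 0.71 and 0.32 on chronic 1, 2 and 3. The acute arrays were therefore the lowest 3 of the 9 in this list while they lay above the controls in Inhba. Chronic 2 was the highest array in the list and the lowest chronic array in Inhba. The genes of the list did not all differ in 1 direction: in acute MPTP against control 6 of the 19 were higher and 13 lower, with a median of -0.30. The part of neuronal activity in the Inhba values was not tested.

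**Figure D2:**
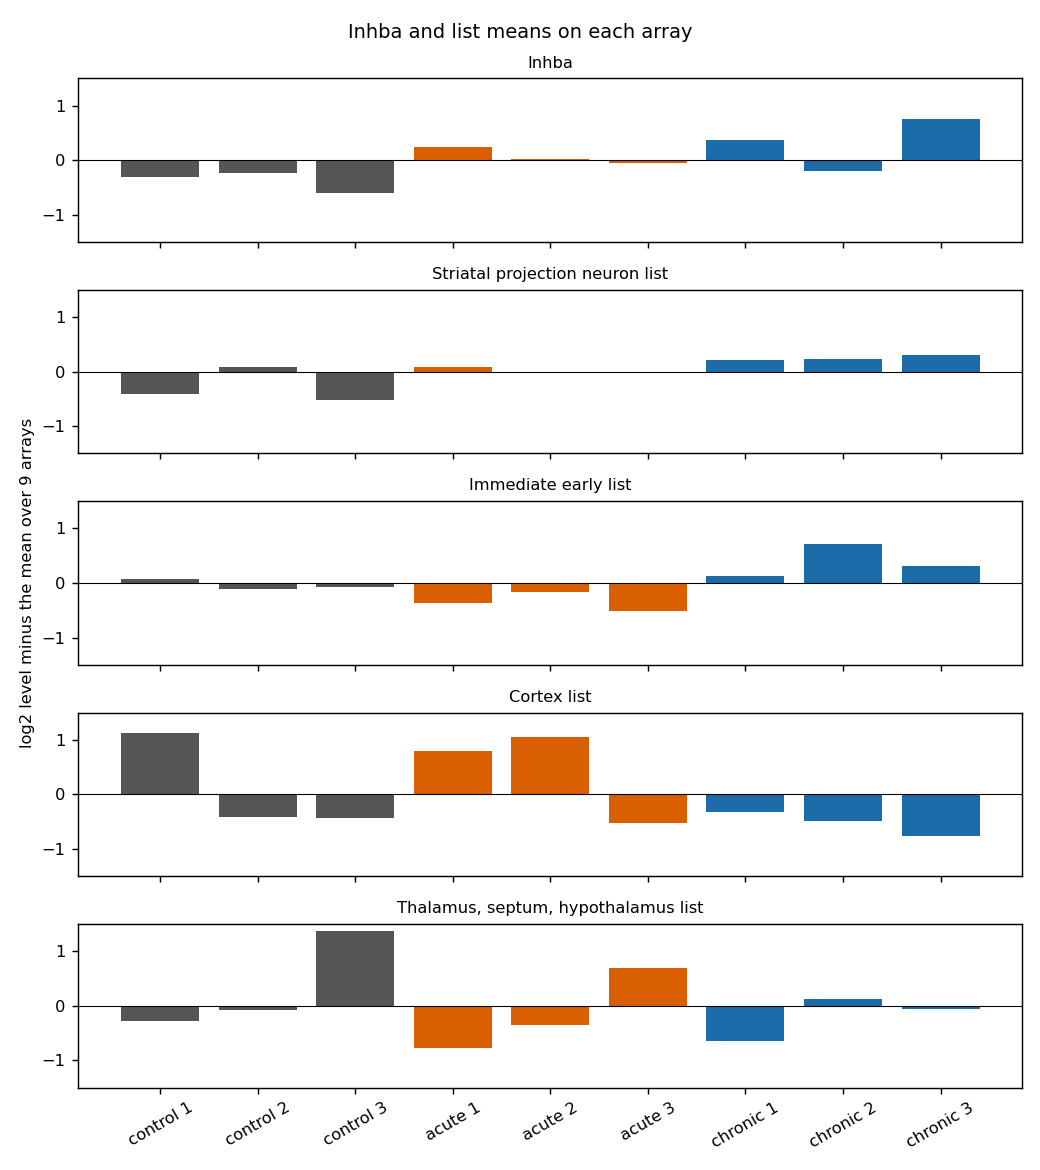
Log2 level of Inhba and the means of 4 gene lists on each of the 9 arrays (x axis), each relative to its mean over all arrays (y axis, log2); grey, orange and blue bars are control, acute and chronic arrays. Inhba and the striatal list are both lowest on control 3 and highest on chronic 3, whereas the immediate early list is lowest on acute 3 (-0.51) and highest on chronic 2 (0.71).

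By the root mean square difference between centred log2 profiles over the 9 arrays, the 5 genes most like Inhba were Gprin3, Klhl1, Gcnt2, Atxn1 and Phex, at 0.122 to 0.143. Gprin3, a regulator of neurite outgrowth that binds G proteins, lay at 8.75, 8.95 and 8.67 in controls, 9.22, 9.03 and 8.98 after acute MPTP and 9.39, 9.08 and 9.67 after chronic MPTP. Phex, a membrane endopeptidase, ran from 5.87 on control 3 to 7.49 on chronic 3. In all 5, as in Inhba, control 3 was the lowest array and chronic 3 the highest. The 5 were chosen for their likeness to Inhba, so these shared extremes follow from the choice and nothing is read from them. Of the other members, Acvr1 was nearest to Inhba, at 0.24, and Fst next, at 0.29.

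**Figure D3:**
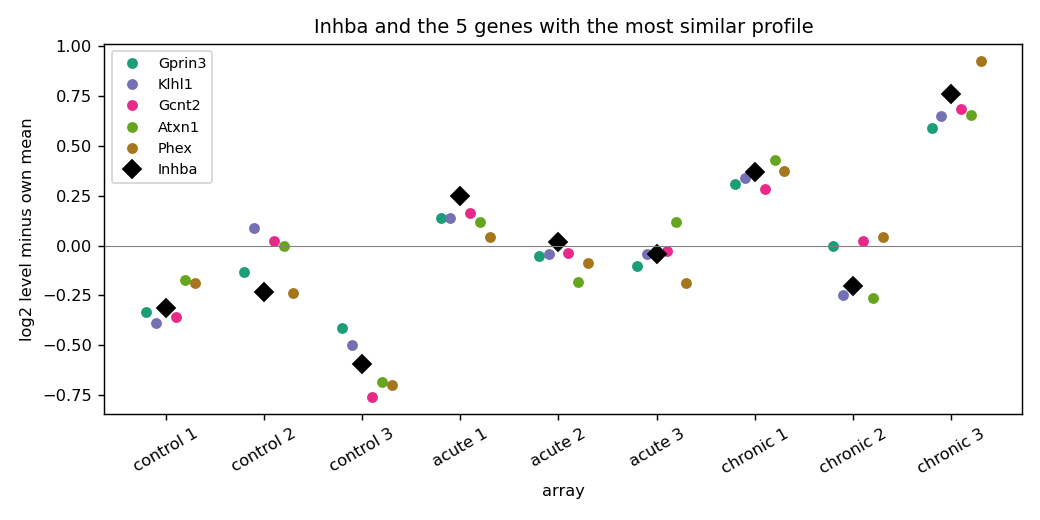
Log2 level minus the gene's own mean (y axis) on each of the 9 arrays (x axis) for Inhba, drawn as black diamonds, and the 5 genes with the most similar profile, drawn as coloured circles. All 6 genes are lowest on control 3 and highest on chronic 3, which follows from the choice of the 5 by likeness to Inhba.

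Inhbb, the activin B subunit, was flat. Its log2 intensity was 6.70, 6.69 and 6.69 in controls, 6.69 on each acute array, and 6.69, 6.66 and 6.69 after chronic MPTP. Its within-group SD, pooled over the 3 groups, was 0.0095 against a median of 0.157 over all tested probe sets, and only 0.0184% of them had a smaller one. The mean over the 9 arrays, 6.68, was at the 46.6th percentile of all probe sets. Whether this probe set follows the level of its transcript was not tested. The log2 difference was -0.01 for chronic MPTP against control (95% interval -0.17 to 0.14, limma adjusted p = 0.991) and -0.01 for chronic against acute (-0.17 to 0.15, adjusted p = 0.991). These intervals are wider than the spread of the arrays because limma moderates a small variance towards that of all probe sets. For acute against control the difference was -0.00.

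Acvr1, the receptor kinase ALK2, which serves mainly bone morphogenetic proteins and also binds activin A, was the other member whose chronic arrays all lay above the controls. It was at 8.33, 8.25 and 8.11 on control 1, 2 and 3, at 8.64, 8.38 and 8.29 after acute MPTP and at 8.54, 8.4 and 8.64 after chronic MPTP. Acute 3, at 8.29, lay below control 1, so the acute and control groups overlapped. The mean was 8.23 ± 0.11 (SD, n = 3) in controls, 8.43 ± 0.18 after acute and 8.53 ± 0.12 after chronic MPTP. The difference of 0.30 ± 0.12 for chronic MPTP against control, 1.23-fold, did not pass (adjusted p = 0.898 in limma; with the replicate number as a block, adjusted p = 0.305). It was 0.20 with the cortex and thalamus list means as covariates and 0.17 with the striatal list mean. For acute against control it was 0.20 ± 0.12, and 0.10 without acute 1. For chronic against acute it was 0.09 ± 0.12 (adjusted p = 0.906), with 0.20 without acute 1, 0.02 without acute 3, 0.16 without chronic 2, 0.04 without chronic 3 and 0.24 without the 3 cortex-rich arrays.

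Acvr1b, the type I receptor ALK4 through which activins mainly signal, was at 9.95, 10.09 and 9.98 in controls, 9.89, 10.17 and 9.87 after acute MPTP and 9.71, 9.98 and 9.96 after chronic MPTP. The 3 groups overlapped, with chronic 1 the lowest array. The difference for chronic MPTP against control was -0.13 ± 0.11 (95% interval -0.38 to 0.13, adjusted p = 0.967 in limma), and -0.04 without chronic 1. For chronic against acute it was -0.09 ± 0.11 (adjusted p = 0.906), and for acute against control -0.03 ± 0.11. By profile, Acvr1b was most like Preb, Txnrd2 and Dedd2, at 0.039 to 0.045.

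Acvr2a, a type II receptor that binds activin first, was lower on average in both MPTP groups. Its log2 intensity was 8.60, 8.50 and 8.67 in controls, 8.44, 8.29 and 8.69 after acute MPTP and 8.24, 8.29 and 8.51 after chronic MPTP. Only chronic 3, at 8.51, reached into the control range, and acute 3 was the highest of the 9 arrays. The difference for chronic MPTP against control was -0.24 ± 0.12 (95% interval -0.51 to 0.03), which did not pass (adjusted p = 0.926 in limma; with the block, adjusted p = 0.296). Between arrays of the same replicate number it was -0.36, -0.20 and -0.15 for numbers 1, 2 and 3. Against acute MPTP it was -0.12 ± 0.12 (adjusted p = 0.893) and -0.02 without the 2 choroid-rich arrays. Without the 3 cortex-rich arrays, which left acute 3 alone in its group, it was -0.34. Acute MPTP against control was -0.12 ± 0.12, and 0.11 without the 3 cortex-rich arrays.

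Acvr2b, the second type II receptor, varied little: it ran from 6.97 on chronic 3 to 7.15 on chronic 2, and the group means were 7.06 ± 0.02, 7.07 ± 0.04 and 7.06 ± 0.09 (SD, n = 3) in control, acute and chronic arrays. Both extremes thus belonged to the chronic group. The difference was -0.00 for chronic MPTP against control (95% interval -0.18 to 0.17, adjusted p = 0.999 in limma) and -0.02 against acute MPTP (-0.19 to 0.16, adjusted p = 0.983). Only 3.98% of tested probe sets had a smaller within-group SD than Acvr2b, at 0.0576.

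Fst, whose product neutralises activin, was at 6.79, 6.93 and 6.50 in controls, 6.87, 6.82 and 6.76 after acute MPTP and 6.79, 6.79 and 7.06 after chronic MPTP. The lowest array was control 3 and the highest chronic 3, as in Inhba, but the groups overlapped. The difference for chronic MPTP against control was 0.14 ± 0.13 (95% interval -0.14 to 0.42, adjusted p = 0.967 in limma). It was 0.02 without control 3 and 0.05 without chronic 3, and it turned to -0.07 with the cortex and thalamus list means as covariates and to -0.20 with the striatal list mean. Chronic against acute was 0.06 ± 0.13 (adjusted p = 0.949), and acute against control 0.08 ± 0.13, or -0.04 without control 3. Fst was most like Pdcd6, a calcium-binding protein, at 0.04.

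Fstl1, a secreted glycoprotein with a follistatin domain, was highest on the third array of each group. It was at 8.94, 9.04 and 9.51 in controls, 8.88, 8.84 and 9.39 after acute MPTP and 8.90, 8.86 and 9.07 after chronic MPTP. The mean of the thalamus, septum and hypothalamus list was 1.37 on control 3 and 0.69 on acute 3, the 2 arrays highest in Fstl1, and between -0.77 and 0.12 on the other 7. The same 2 arrays were the choroid-rich ones, with choroid plexus list means of 0.92 and 1.58. Within the chronic group, the thalamus, septum and hypothalamus list was higher on chronic 2 (0.12) than on chronic 3 (-0.05), unlike Fstl1. The part of either tissue in the Fstl1 values was not tested beyond the fits that follow. The chronic against control difference was -0.22 ± 0.18 (adjusted p = 0.963 in limma), -0.17 with the cortex and thalamus list means as covariates, -0.04 without control 3 and 0.03 with the striatal list mean. With the replicate number as a block the adjusted p was 0.384, and the differences within numbers 1, 2 and 3 were -0.04, -0.18 and -0.43. Chronic against acute was -0.09 ± 0.18 (adjusted p = 0.951). It was -0.44 without the 3 cortex-rich arrays and -0.20 with the cortex and thalamus list means as covariates, and it turned to 0.09 without acute 3. Acute against control was -0.13 ± 0.18, and it turned to 0.04 without control 3. Fstl1 was most like Klhl14, Castor2 and Slc7a11, at 0.059 to 0.074.

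**Figure D4:**
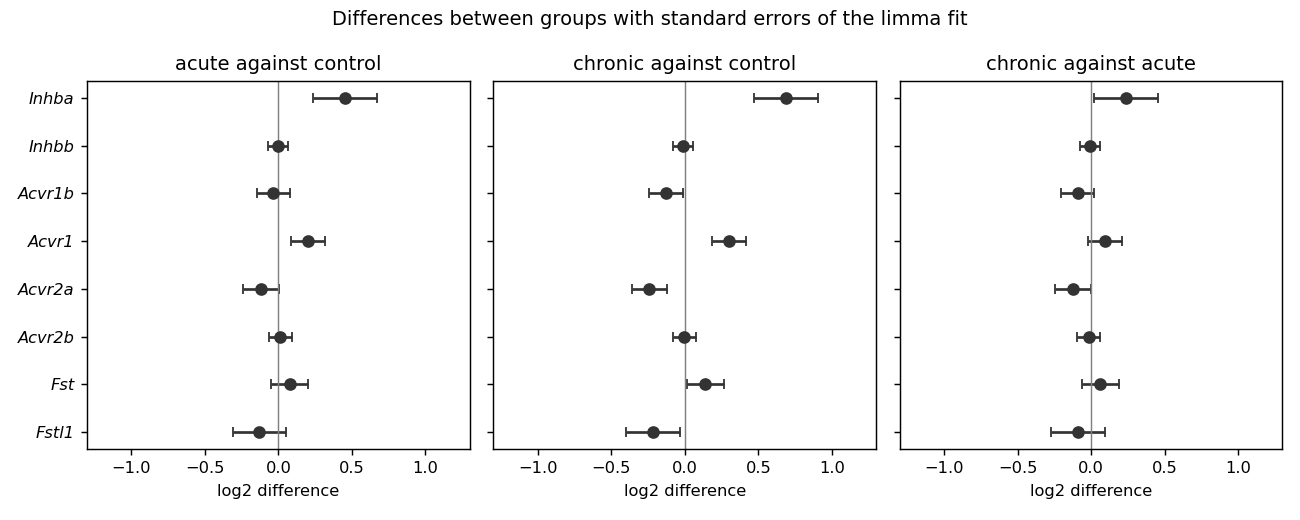
Log2 difference (x axis) of each member (y axis) in the 3 comparisons; points are differences of group means with 3 arrays each and bars the standard errors of the limma fit. Inhba is highest in each panel, at 0.45, 0.69 and 0.23, and Inhbb and Acvr2b lie between -0.02 and 0.01 throughout.

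Of the 7 members other than Inhba, the chronic arrays lay wholly above the controls in 1, Acvr1, and wholly below in 0. Over all 16335 tested probe sets the shares were 2.88% and 3.67%. Those of Inhba also lay wholly above, but Inhba was singled out against the same control arrays, so it is left out of this count. After acute MPTP the groups were separate in 1 member, Inhba, which lay above the controls as 2.06% of all tested probe sets did, while 0 members and 1.49% of probe sets lay wholly below; this contrast singled out Inhba, and nothing is read from that count. Between chronic and acute MPTP 0 of 8 were separate; of all tested probe sets, 3.61% lay wholly higher after chronic MPTP and 5.01% wholly lower. At an adjusted p under 0.05, 0% of all probe sets passed in acute or in chronic MPTP against control in limma, and 0.0122% did in chronic against acute; no member was among the latter. At an unadjusted p under 0.05 the shares were 0.851%, 5.51% and 5.12% of all tested probe sets, and 4.21% in acute against control with the replicate number as a block. Among the 7 members other than Inhba, the share at an unadjusted p under 0.05 was 1 of 7 in chronic against control, Acvr1, and 0 of 7 in chronic against acute. With the replicate number as a block it was 3 of 7 in chronic against control, Acvr1, Acvr2a and Fstl1, where 13.0% of all tested probe sets were at that level, and 0 of 7 in chronic against acute, where 13.9% were. The median difference over all tested probe sets was 0.00 for acute against control and -0.01 for each comparison with chronic MPTP. The comparisons share arrays, so the values of a member in them are not independent.

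Other genes of the pathway were read from lists of ligands, receptors, Smad proteins, antagonists, targets and processing enzymes. Of 61 genes, 58 could be named on the platform and 51 were above the filter. In chronic MPTP against control 32 were higher and 19 lower, with a median of 0.04; 0 passed in limma, and 7 had an unadjusted p under 0.05, where the share of all probe sets was 5.51%. In chronic against acute 28 were higher and 23 lower (median 0.03), with 0 passing and 4 at an unadjusted p under 0.05, where the share of all probe sets was 5.12%. With the replicate number as a block the counts at an unadjusted p under 0.05 were 10 and 7 of 51, against 13.0% and 13.9% of all tested probe sets, and 0 passed after adjustment. In acute against control 32 were higher and 19 lower (median 0.06). Of all tested probe sets, 51.5% were higher in acute against control, 46.7% in chronic against control and 46.1% in chronic against acute. Of 15 genes of Smad proteins and their partners, 13 were higher in chronic MPTP than in control, with a median of 0.16, where 46.7% of all tested probe sets were higher. Of these 15, 1 had an unadjusted p under 0.05 (4 with the block). In the same comparison 11 of 11 striatal projection neuron genes were higher (median 0.52), 8 of 10 cortex genes lower (median -0.54) and 12 of 12 genes of the thalamus, septum and hypothalamus list lower (median -0.43). Their part in the values of the Smad genes was not tested. In acute MPTP against control 8 of the 15 were higher, with a median of 0.02, and whether the 2 medians differ was not tested.

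Among the other ligands and receptors, Inha, whose product pairs with a beta subunit to form inhibin, differed by -0.02 ± 0.16 in chronic MPTP against control (adjusted p = 0.993 in limma). Acvr1c, the type I receptor ALK7 that binds activin B and nodal, had the largest difference of the 51 in that comparison and was singled out after its values were seen. It lay at 8.72, 9.15 and 8.03 in controls, 9.40, 9.12 and 8.91 after acute MPTP and 9.59, 9.14 and 9.97 after chronic MPTP. Control 3 was its lowest array and chronic 3 its highest, and chronic 2 lay just below control 2. The difference was 0.93 ± 0.29 in chronic MPTP against control (adjusted p = 0.876 in limma). Bmpr2, a type II receptor of bone morphogenetic proteins, was at 11.36 to 11.43 after acute and 11.44 to 11.79 after chronic MPTP, a difference of 0.21 ± 0.10 (adjusted p = 0.877).

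Downstream, Smad7, which inhibits activin receptors and is itself induced by Smad signalling, lay at 8.28, 8.44 and 8.34 after acute MPTP and 8.46, 8.82 and 9.0 after chronic MPTP. The groups did not overlap, and the difference was 0.41 ± 0.15 (1.33-fold, adjusted p = 0.877 in limma). Against control, chronic MPTP differed by 0.39 ± 0.15 in Smad7 (adjusted p = 0.898), 0.31 ± 0.15 in Smad3 and -0.20 ± 0.16 in Smad2, and each of these 3 genes overlapped between the groups. Id1, a target of Smad signalling, was at 7.63, 7.64 and 7.5 in controls and 7.96, 7.67 and 7.79 after chronic MPTP. It was 0.22 ± 0.09 higher than in controls (adjusted p = 0.899), and 0.15 ± 0.09 higher than after acute MPTP, with overlapping groups in the latter. Id3 differed by -0.42 ± 0.17 between chronic and acute arrays (adjusted p = 0.877), and by -0.17 ± 0.17 against control, where the groups overlapped. Of the 7 tested genes of the target list, 4 were higher and 3 lower in chronic MPTP against control (median 0.05). The largest of these differences was 0.53 ± 0.17 in Pmepa1 (adjusted p = 0.876), whose groups overlapped.

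The remaining named genes encode mostly secreted or processing proteins. Fstl3, a follistatin relative that also binds activin, differed by 0.18 between acute MPTP and control, with acute arrays from 7.03 to 7.15 and control arrays from 6.78 to 7.03. Smad4 and Bmp1, a procollagen protease, also had acute arrays wholly above the controls, with differences of the means of 0.17 and 0.09. The gaps were close to nil: after rounding, Smad4 was 10.47 on both control 2 and acute 2. Bmp1 was 8.58 on control 2 and 8.59 on acute 1. Of the 51 genes 3 lay wholly above the controls after acute MPTP and 0 wholly below, against 2.06% and 1.49% of all tested probe sets. After chronic MPTP 1 of the 51 lay wholly above the controls and 1 wholly below, against 2.88% and 3.67%. Between chronic and acute MPTP 3 lay wholly higher after chronic MPTP and 2 wholly lower, against 3.61% and 5.01%. Pcsk5, a convertase that cleaves proproteins, was lower after chronic MPTP (6.75, 6.93 and 6.68) than in controls (7.46, 6.94 and 7.03), by 1.28-fold (adjusted p = 0.899 in limma). The gap here was also close to nil, with chronic 2 at 6.93 and control 2 at 6.94. Control 1, the highest array, was cortex-rich, as were acute 2, at 7.34, and acute 1, at 7.02. Pcsk6, a relative of Pcsk5, was higher after chronic (8.97, 9.26 and 8.83) than after acute MPTP (8.42, 8.67 and 8.59), by 1.37-fold (adjusted p = 0.877).

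**Figure D5:**
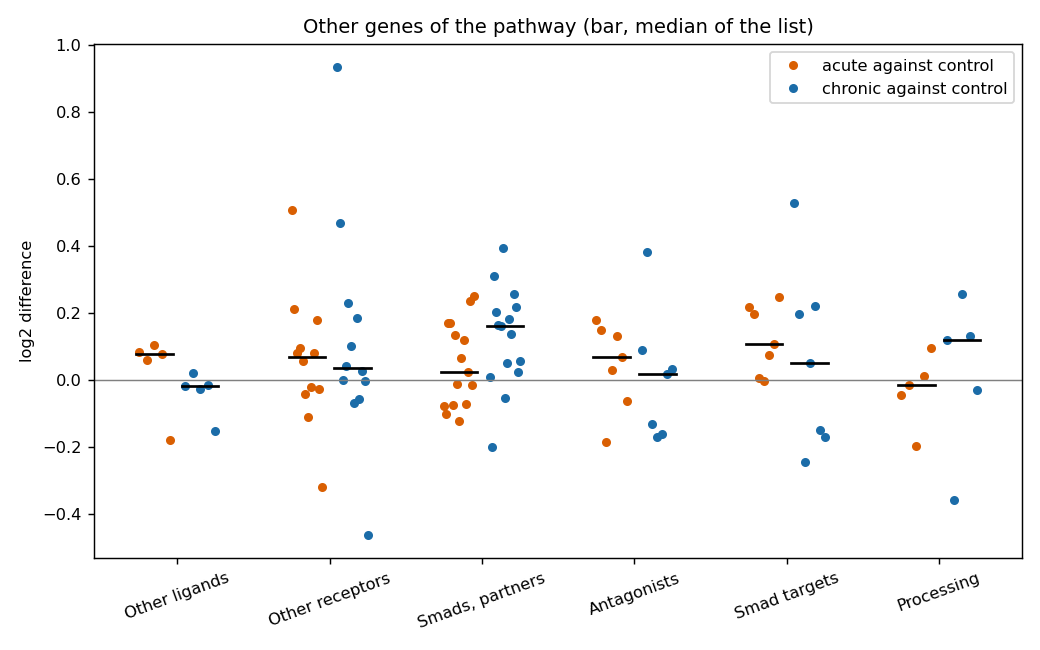
Log2 difference against control (y axis) of the 51 other tested genes of the pathway in 6 lists (x axis); each point is 1 gene after acute (orange) or chronic (blue) MPTP, and black bars are the medians of the lists. The medians lie between -0.02 and 0.16, and the highest point, Acvr1c after chronic MPTP, is at 0.93.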

How the data were processed

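Gene names came from the array platform's annotation: of 28815 probe sets, 21780 had 1 symbol, 1605 several and 5430 none. The values were deposited as 1 log2 intensity per probe set, a scale read from the values; per the labels' protocols, biotinylated cDNA was made from total RNA with the Ambion WT Expression kit. The authors' background correction and normalization are not given in the sources used here, and no scaling was added. Probe sets with 1 symbol and a mean at or above the 25th percentile of such probe sets (log2 5.89) were tested, 16335 in all. A mean per group was fitted over all 9 arrays in limma 3.58.1 (R 4.3.3, lmFit and eBayes), with two-sided tests and Benjamini-Hochberg adjustment over all tested probe sets; 3 arrays a group limit the precision. The titles give replicate numbers but state no pairing. Deviations from group means correlated in all 9 same-numbered pairs (r from 0.157 to 0.674), and r ran from -0.609 to 0.184 in the other 18. Deviations cancel within a group, so high values in the same-numbered pairs lower those in the others. A fit with the number as a block was therefore run beside each test. The members and lists were chosen with earlier results of these data known. For lists, the brightest probe set stood for its gene. Named by rule were all members, pathway genes whose groups did not overlap (up to 6 in each direction) and, by profile, the 5 nearest genes for Inhba and 3 for other members. The alternatives were the block, no filter, quantile normalization, 2 groups only, tissue covariates, an intensity trend and leaving out arrays. The code, tested on simulated acute against control data over 16335 probe sets, called 48.0% of 1.5-fold and 79.6% of 2-fold changes. The simulated noise was independent between probe sets, whereas tissue content moved many genes together on these arrays. These shares therefore check the code and do not give the power in these data.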

Additional observations from a re-analysis of the deposited data

How the results depend on the processing

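Over the alternatives run, none of the 7 members other than Inhba passed an adjusted p of 0.05 in limma in the comparisons with chronic MPTP. The replicate block changed no call of these 7 and left the differences as they were; it moved the count of probe sets at an unadjusted p under 0.05 from 139 to 687 in acute against control, from 900 to 2128 in chronic against control and from 837 to 2278 in chronic against acute, while the counts passing after adjustment were 0, 0 and 2, as without it; the 2 were then Nr4a1 and Tiparp. The count passing in chronic against acute, 2 in the main analysis (Arc and Nr4a1), was 1 without the filter, with only the 2 groups compared and with the striatal list mean as a covariate, which was chosen after seeing the data. It was 0 with the cortex and thalamus covariates, without the 3 cortex-rich arrays and without the 2 choroid-rich arrays. In acute against control it was 1 with only the 2 groups compared. Leaving out single arrays gave counts of 0 to 1 in acute against control, 0 to 2 in chronic against control and 1 to 5 in chronic against acute.

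Signs of members' differences turned in the following cases, and the cause was not tested. In the fits without the 3 cortex-rich arrays, acute 3 was the only acute array. In acute against control the values were 0.00 for Inhbb, 0.11 for Acvr2a, -0.03 for Acvr2b and 0.11 for Fstl1 without the 3 cortex-rich arrays; 0.01 for Acvr1b and -0.01 for Fst without the 2 choroid-rich arrays; 0.03 for Fstl1 with the cortex and thalamus covariates; and -0.12 for Fst and 0.02 for Fstl1 with the striatal covariate. In chronic against control they were 0.01 for Inhbb and 0.01 for Acvr2b after quantile normalization, 0.02 for Acvr2b and -0.07 for Fst with the cortex and thalamus covariates, -0.20 for Fst and 0.03 for Fstl1 with the striatal covariate, and 0.00 for Acvr2b without the 3 arrays. In chronic against acute they were 0.02 for Inhbb and 0.00 for Acvr2b after quantile normalization; -0.00 for Inhba, 0.02 for Acvr2b and -0.08 for Fst with the cortex and thalamus covariates; -0.08 for Fst and 0.02 for Fstl1 with the striatal covariate; 0.01 for Acvr1b and 0.03 for Acvr2b without the 3 arrays; and 0.09 for Fstl1 without the 2. Leaving out single arrays gave, in acute against control, -0.00 to 0.00 for Inhbb, -0.13 to 0.02 for Acvr1b, -0.00 to 0.04 for Acvr2b, -0.04 to 0.17 for Fst and -0.30 to 0.04 for Fstl1. It gave -0.05 to 0.04 for Acvr2b in chronic against control, and in chronic against acute -0.15 to 0.00 for Acvr1b, -0.06 to 0.03 for Acvr2b, -0.03 to 0.11 for Fst and -0.19 to 0.09 for Fstl1.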
